A study of Mus musculus with 7 samples.

Results

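A set of 9 genes for enzymes and carriers of the monoamine, GABA and acetylcholine systems was followed through the cell types of mouse pancreatic islets. The rule lists them by name and sets no threshold on a value, though earlier results of these data were known when it was made: Th, Gad1, Gad2, Tph1, Tph2, Slc18a1, Slc18a2, Ache and Maob. All 9 had a row in the gene table of replicate 1 (22029 rows) and 8 in that of replicate 2 (22610 rows), out of 23465 genes over both. Tph1 in replicate 2 was not analysed here. The study listed 7 samples in 4 groups: 3' libraries without depletion read on a short-read sequencer (1 sample), and insulin-depleted 3', 5' and modified 5' libraries read as long reads (2 samples each). The long-read samples came from islets of female C57BL/6 mice 10 weeks old, with no transgene, drug or diet named in the labels. Values below are from the 2 modified 5' libraries, in which insulin cDNA had been cut away with guided Cas9, extra dNTP had been added (1 ul of 10 mM) and the extension steps had been lengthened from 45 min to 2 h and from 1 to 3 min. The other samples were not analysed here.

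Tyrosine hydroxylase (Th) makes L-DOPA, the committed step towards dopamine and noradrenaline, and needs tetrahydrobiopterin (BH4) as a cofactor. Glutamate decarboxylases (Gad1 for GAD67, Gad2 for GAD65) make GABA from glutamate, and tryptophan hydroxylases (Tph1, Tph2) begin serotonin synthesis. The vesicular monoamine transporters (Slc18a1 for VMAT1, Slc18a2 for VMAT2) load monoamines into granules, monoamine oxidase B (Maob) breaks them down in mitochondria, and acetylcholinesterase (Ache) splits acetylcholine outside the cell. In the islet, beta cells are known to make GABA and, in mice, can make serotonin, while acetylcholine arrives from parasympathetic nerves.

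Levels are counts of UMIs (unique molecular identifiers, which count molecules) per 1000000 UMIs of a cell type in a library (CPM), where the total is what was left after insulin removal. The authors' table kept 4814 cells in replicate 1 and 1093 in replicate 2, with a median of 2110 and 9949 UMIs per cell, so shares of cells with a UMI are compared between libraries only after thinning. There were 961 and 239 alpha cells, 2284 and 435 beta cells, 965 and 318 cells of the delta class, 283 and 41 PP cells, 141 and 26 cells of a class named endothelial and 118 and 27 stellate cells. The libraries shared 5 of their kept cell barcodes. Nothing in the labels says that they came from separate animals, so an SD over the 2 libraries may be technical, and intervals on single libraries cover counting error only. The clusters were made from the same genes, so p-values between types are circular in part. Alpha, beta and PP clusters carried their own hormone markers. The endothelial class was mixed: it held all 6 endothelial markers at 12613 and 2613 CPM, but also duct markers at 3976 and 15722 CPM, more than the endothelial ones in replicate 2 (beta cells held 361 and 308 CPM of duct markers). The part of the duct markers in its values was not tested. Stellate cells held stellate markers at 11838 and 5049 CPM, but also alpha markers at 19420 and 22059 CPM and beta markers at 8765 and 6137 CPM. Schwann markers in stellate cells summed to 0 and 816 CPM. The part of these other markers in the stellate values was not tested. The delta class was uneven as well: of its 6 clusters, cluster 3 was led by delta markers (summed to 162281 and 118037 CPM, beside 36152 and 38204 CPM of beta markers), and cluster 8 held more beta than delta markers (93235 and 74322 CPM against 61883 and 48344 CPM). Cluster 7, with 30.6% and 8.49% of the cells of the class, held more beta than delta markers in replicate 1 (46228 against 28007 CPM) and fewer in replicate 2 (24679 against 78075 CPM). Cluster 12 held more alpha (164580 and 121247 CPM) than delta markers (75865 and 57047 CPM), and cluster 14 more beta (74924 and 70698 CPM) than delta markers (21791 and 7884 CPM). Cluster 16, of 7 and 7 cells, held 0 and 2 of 5 delta markers but 6 of 6 nerve markers at 38542 and 29429 CPM (79.1 to 230 CPM in the 4 beta clusters and in delta clusters 3, 7 and 8). It is therefore called by its number, and delta-class results include it unless said otherwise. Results without it are given below for Ache, Slc18a2 and part of the pathway lists. Without it the fitted log2 differences of the class from beta cells were -2.21 for Th, -1.74 for Gad1 and -1.74 for Maob.

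Of the 9 genes, 6 passed the filter on low counts and Gad2, Tph1 and Tph2 did not. In the edgeR quasi-likelihood fit over 12 sums, 1 of these 6 was higher and 3 were lower in alpha than in beta cells, where 19.0% of 13265 genes were called, 9.13% as higher and 9.91% as lower. The same split of 1 higher and 3 lower was found in the delta class, where 13.8% of genes were called (8.78% higher, 5.01% lower), and in PP cells, where 17.3% were (8.89% higher, 8.43% lower). The 3 lower genes were Th, Gad1 and Maob each time, and the higher one was Ache. These 3 comparisons share the beta cells. The median log2 difference of the 6 genes was -0.99 in alpha cells, -0.99 in the delta class and -3.47 in PP cells, beside 0.02, 0.00 and -0.03 over all genes. In the endothelial class and stellate cells against the 4 endocrine types, 2 of 6 were called, both lower (Maob and Slc18a1), with 30.7% of all genes called (17.1% as lower) and a median of -2.21 beside -0.25.

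**Figure D1:**
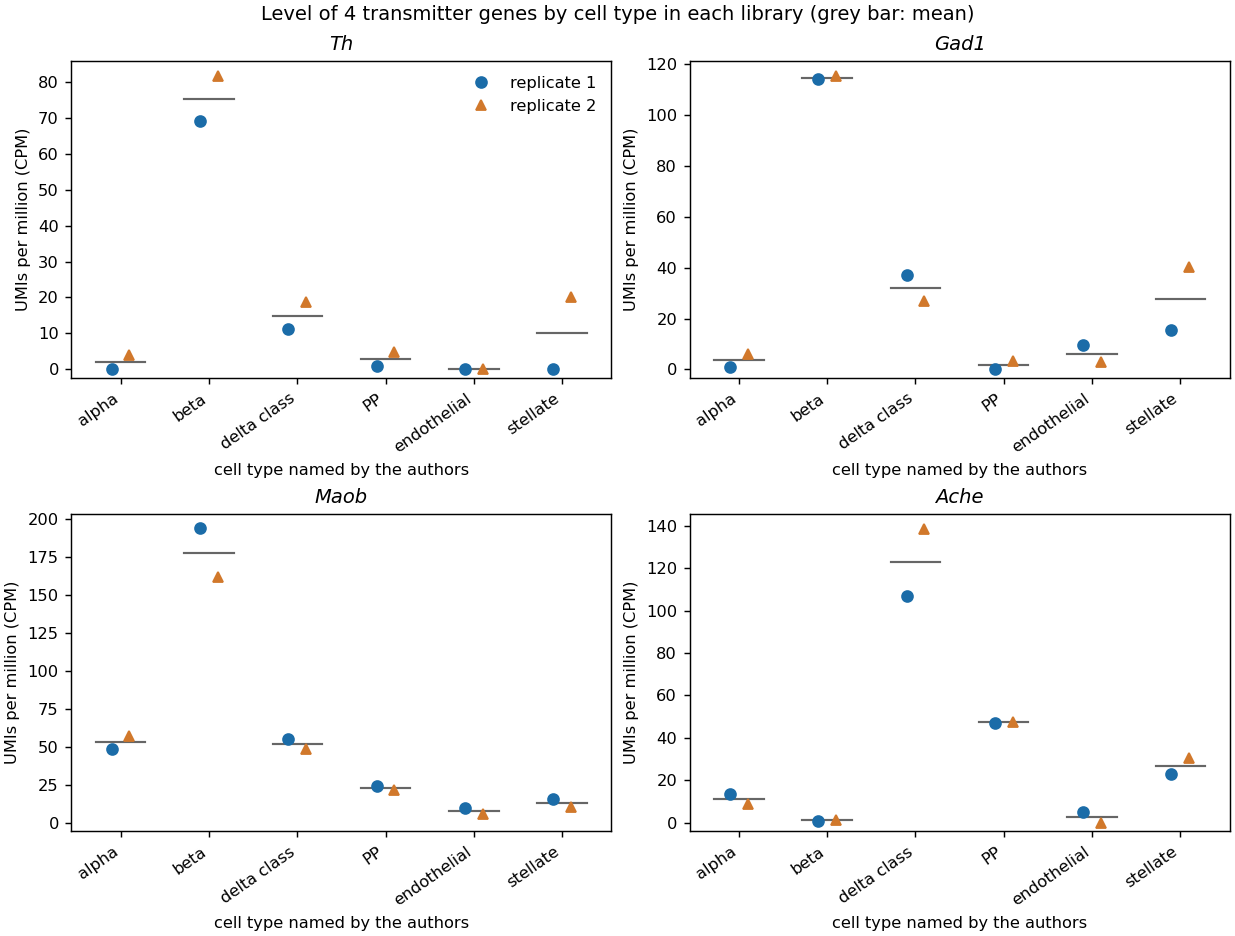
Level in CPM (y axis) of Th, Gad1, Maob and Ache in each author-named cell type (x axis), with 1 point per library and a grey bar at their mean. Beta cells stand highest for Th, Gad1 and Maob in both libraries, while Ache stands highest in the delta class and lowest of the endocrine types in beta cells.

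Th (ENSMUSG00000000214.11, chromosome 7, 142892752 to 142931128, minus strand, GRCm38) was highest in beta cells. Its level in beta cells was 68.9 CPM in replicate 1 (375 UMIs) and 81.6 CPM in replicate 2 (358 UMIs), a mean of 75.3 ± 8.98 (SD, n = 2). The delta class held 11.3 and 18.6 CPM, PP cells 1.09 and 4.91 CPM (1 and 3 UMIs) and alpha cells 0 and 3.94 CPM (0 and 9 UMIs). Beta cells lay above every other type in both libraries with no overlap, and PP and alpha cells overlapped each other. With no UMI in 961 alpha cells of replicate 1, a level of up to 1.57 CPM and a share of cells with a UMI of up to 0.312% remain possible. The class named endothelial, mixed with duct markers, had no Th UMI in either library, at least 13.9-fold lower than beta cells (floor of 3 UMIs over both libraries), and stellate cells had 0 and 2.

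Against beta cells, Th was lower by a log2 difference of -4.77 ± 0.43 (SE) in alpha cells (edgeR adjusted p = 1.4e-09), -4.39 ± 0.56 in PP cells (1.3e-06) and -2.30 ± 0.28 in the delta class (5.8e-07), the same way in both libraries. Taken alone, as log2 CPM differences with a prior count of 2, replicate 1 gave -5.95 and replicate 2 gave -3.71 in alpha cells, and -4.76 and -3.44 in PP cells. On summed UMIs, beta cells held 34.8 times the alpha level (95% counting interval 18.2 to 76.4) and 28.4 times the PP level (11.1 to 105). Against the endocrine types, the non-endocrine value of -3.80 missed the threshold (edgeR adjusted p = 0.073), and passed it with no filter on low counts (0.034).

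Th was unevenly spread over the 4 beta clusters. Cluster 0 held 102 and 119 CPM and cluster 4 held 78.2 and 83.5 CPM, while cluster 2 held 26.6 and 19.0 CPM and cluster 5 held 24.8 and 32.1 CPM. The clusters fall into a high and a low pair that do not overlap in either library. In replicate 1, 12.8% of beta cells had a Th UMI (11.4 to 14.2, exact 95% interval), and in replicate 2 it was 38.6% (34.0 to 43.4), at median depths of 2224 and 9947 UMIs. After each cell was thinned to 1000 UMIs the shares were 5.71% and 8.51%. Alpha cells, the background here, showed 0% and 3.35% at median depths of 1959 and 8917 UMIs, and 0% in both libraries after thinning. Part of the delta value came from 1 cell: a cell of cluster 3 in replicate 2 held 21 of the 80 Th UMIs of the class, and without it the class stood at 13.8 CPM and cluster 3 went from 26.7 to 14.04 CPM.

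All 312 and 305 UMIs of Th that had been assigned to a transcript belonged to Th-201, the full-length coding transcript of 498 codons starting at 142900014. These were 77.6% and 67.5% of the Th UMIs, and start positions of the molecules were not measured. The bases upstream of the annotated start are shown because no UMI was assigned to another Th transcript. The window runs from 250 to 20 bases before the start annotated in RefSeq (GRCm38.p6, chr7:142900015-142900245, minus strand) and stops where the GENCODE exon begins. Capitals mark every match, on either strand, to a cyclic-AMP response element (TGACGTCA), an AP-1 site (TGANTCA), a GC box (GGGCGG) or an E-box (CANNTG).

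Th: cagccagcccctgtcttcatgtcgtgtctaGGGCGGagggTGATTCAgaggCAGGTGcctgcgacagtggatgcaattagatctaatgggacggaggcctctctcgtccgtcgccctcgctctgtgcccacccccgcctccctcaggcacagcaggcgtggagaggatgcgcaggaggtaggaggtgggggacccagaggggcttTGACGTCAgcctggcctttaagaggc

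The cyclic-AMP element begins 45 bases before the RefSeq start, and 1.30% of 32851 RefSeq promoter windows of this length contain one. AP-1 sites were found in 6.36%, GC boxes in 30.0% and E-boxes in 63.6% of such windows. No match overlaps another. A match is a description of the letters, since no binding was measured.

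Gad1 (ENSMUSG00000070880.10, chromosome 2, 70553072 to 70602014, plus strand) was also highest in beta cells, followed by the delta class among the endocrine types. Beta cells held 114 and 116 CPM (621 and 507 UMIs), a mean of 115 ± 1.03 (SD, n = 2). The delta class held 37.0 and 26.8 CPM, alpha cells 1.05 and 6.13 CPM (2 and 14 UMIs) and PP cells 0 and 3.27 CPM (0 and 2 UMIs). Beta cells stood apart from all other endocrine types, and alpha and PP cells overlapped. Stellate cells held 15.4 and 40.3 CPM and the endothelial class 9.63 and 2.83 CPM, on 6 and 3 UMIs over both libraries, so that stellate cells overlapped the delta class. The log2 difference from beta cells was -4.49 ± 0.37 in alpha cells (edgeR adjusted p = 1.2e-10), -5.98 ± 0.59 in PP cells (1.1e-08) and -1.84 ± 0.25 in the delta class (2.4e-06). Replicates 1 and 2 alone gave -5.50 and -3.66 in alpha cells and -6.67 and -4.42 in PP cells. Non-endocrine cells differed from endocrine ones by -0.27 ± 0.69 with opposite signs in the 2 libraries (adjusted p = 0.817), and by 0.03 without TMM scaling.

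Within the beta class, clusters 0, 2 and 4 ranged from 92.9 to 166 CPM of Gad1, while cluster 5 held 15.1 and 13.7 CPM. Cluster 5 also carried PP markers at 10587 and 28495 CPM, against 298 to 2555 CPM in the other beta clusters, and their part in its Gad1 level was not tested. Within the delta class, cluster 3 held 2.93 and 15.2 CPM of Gad1, cluster 7 held 143 and 50.7 CPM and cluster 8 held 53.5 and 57.7 CPM. Clusters 7 and 8 thus lay above cluster 3 in both libraries. Beta markers summed to 36152 and 38204, 46228 and 24679, and 93235 and 74322 CPM in these 3 clusters, and their part in the Gad1 levels was not tested. With cluster 3 as the only delta cluster and cluster 5 left out of the beta class, the Gad1 difference from beta cells went from -1.84 to -3.64 ± 0.38 (edgeR adjusted p = 1.7e-07) and that of Maob went to -3.35 ± 0.25 (1.1e-09), while that of Th was -2.03 ± 0.35 (1.7e-04). Thinned to 1000 UMIs, 9.96% and 9.89% of beta cells had a Gad1 UMI, against 0.222% and 0% of alpha cells. The unthinned shares were 21.4% and 54.3% of beta cells and 0.208% and 5.44% of alpha cells.

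Gad1 and Th were seen in overlapping sets of beta cells. At 1000 UMIs per cell, Gad1 was found, in replicate 1, in 10.4% of Th-positive cells (5.65 to 17.1, exact 95% interval) and 9.93% of Th-negative cells (8.68 to 11.3). Replicate 2 gave 16.2% (6.19 to 32.0) and 9.30% (6.63 to 12.6). The intervals overlap in both libraries, so neither co-occurrence nor avoidance was detectable at this depth. With all UMIs, the depths of the compared cells were not matched. The shares were then 26.4% (21.4 to 31.8) and 20.6% (18.9 to 22.5) in replicate 1. In replicate 2 they were 66.7% (59.0 to 73.7) and 46.4% (40.3 to 52.6), with separate intervals. Within beta cluster 0 alone, all UMIs gave 31.3% (25.0 to 38.2) and 32.6% (29.1 to 36.3) in replicate 1. Replicate 2 gave 70.9% (61.8 to 79.0) and 56.8% (45.8 to 67.3) there, and the intervals overlapped in both libraries.

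**Figure D2:**
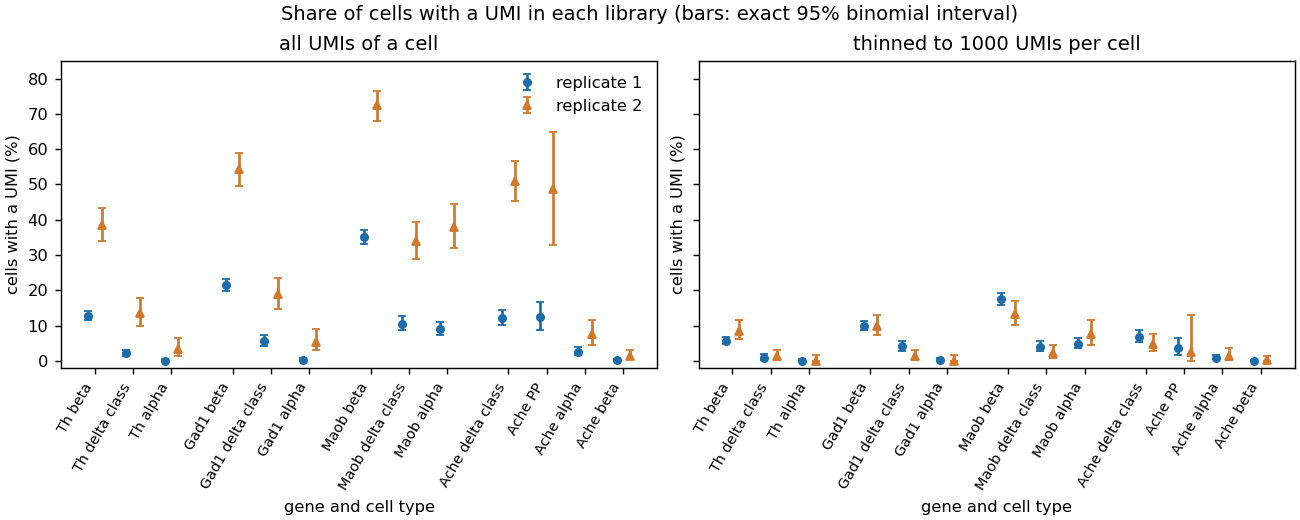
Share of cells with at least 1 UMI (y axis, percent) for 4 genes, in the type where each was highest and in other endocrine types (x axis). All UMIs are used on the left, and every cell is thinned to 1000 UMIs on the right. Bars are exact 95% binomial intervals. The gap between libraries on the left, such as 12.8% and 38.6% of beta cells for Th, shrinks to 5.71% and 8.51% on the right.

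The assigned transcripts of Gad1 divided between the coding transcript of GAD67 and shorter forms. Transcripts that carry on into the exon at 70585834 to 70585946 include Gad1-201 of 593 codons. Transcripts 203, 205 and 207 instead enter an alternative exon at 70584420 after the shared exon that ends at 70579201, and stop at codon 223. This fork is shown from 30 bases before it, with the bases after it in capitals (GRCm38, plus strand, coding sequence of GENCODE M21). The short form ends with its stop codon, the last 3 bases printed.

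Gad1-201: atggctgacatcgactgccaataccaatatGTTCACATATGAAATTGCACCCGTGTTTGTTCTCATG
Gad1-205: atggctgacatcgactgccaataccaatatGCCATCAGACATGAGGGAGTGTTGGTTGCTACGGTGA

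In beta cells the forms with the short end held 62 of 128 assigned Gad1 UMIs in replicate 1 (48.4%, with an exact 95% interval of 39.5 to 57.4) and 64 of 105 in replicate 2 (61.0%, 50.9 to 70.3). Those with the long end held 50 (39.1%) and 27 (25.7%). Gad1-205 was the most frequent form, at 43.0% and 50.5%, ahead of Gad1-201 at 35.2% and 23.8%, with overlapping intervals in replicate 1 (34.3 to 52.0 and 26.9 to 44.1) and separate ones in replicate 2 (from 40.5 for the former, up to 33.1 for the latter). In the delta class the short end held 8 of 15 and 13 of 21 UMIs. Between the delta class and beta cells no Gad1 transcript share was called by edgeR's diffSpliceDGE (gene adjusted p of 0.9999 or more, with 0.815% of genes called), on the few delta-class UMIs just given. Alpha cells had 0 and 3 assigned Gad1 UMIs, too few to compare. Only 20.1% and 20.4% of Gad1 UMIs had been assigned to a transcript, against a median of 71.1% and 70.1% over genes with 100 or more UMIs, and 13.1% and 13.9% of those genes had a lower share. The shares above therefore describe the assigned part only. Gad1os, an antisense gene, overlaps the locus, and nothing in the labels says whether the counting used strand.

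**Figure D3:**
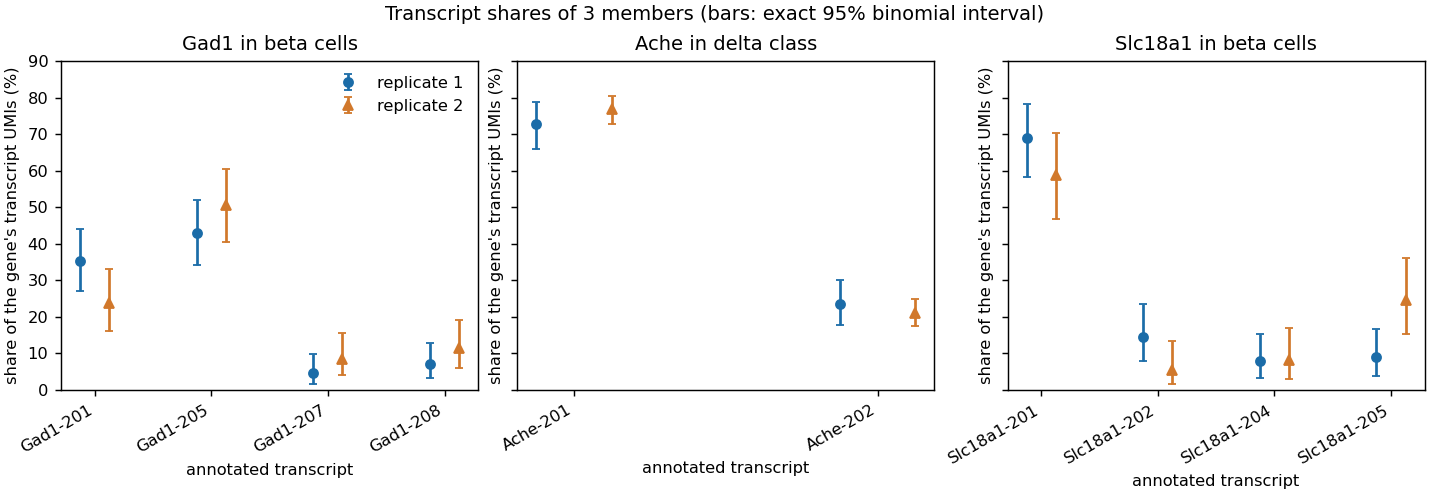
Share of a gene's assigned transcript UMIs (y axis, percent) for each annotated transcript with at least 5% (x axis), for Gad1 in beta cells, Ache in the delta class and Slc18a1 in beta cells, per library with exact 95% binomial intervals. Gad1-205 stands at 43.0% and 50.5%, above Gad1-201 at 35.2% and 23.8%, and Ache-201 at 72.8% and 76.8%.

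Th-201 and Gad1-201 begin at sites with different upstream letters, and the Gad1 window is shown for that contrast. It covers 250 to 88 bases before the RefSeq start (chr2:70561879-70562041, plus strand), with capitals as above.

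Gad1: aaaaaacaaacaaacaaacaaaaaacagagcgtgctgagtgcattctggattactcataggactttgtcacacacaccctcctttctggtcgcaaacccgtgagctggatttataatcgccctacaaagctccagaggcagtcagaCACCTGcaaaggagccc

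It holds 1 E-box, 104 bases before the RefSeq start, which 52.1% of windows of its length also hold. It has no cyclic-AMP element, AP-1 site or GC box, found in 0.438%, 4.47% and 18.4% of such windows. Gad1-205, the most frequent form, starts further downstream, in an exon at 70562899 to 70563202, so this window lies upstream of Gad1-201 and not of every Gad1 start.

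Gad2, which encodes GAD65, was close to undetected in these mouse islets. It had 0 and 1 UMIs in beta cells, 1 and 1 in the delta class and none in the other 5 named types. No UMI in 2284 beta cells of replicate 1 allows a share of cells with a UMI of up to 0.131%, at a median of 2224 UMIs per cell. In the same beta cells Gad1 had 621 and 507 UMIs, a contrast of counts that is not corrected for length.

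Maob (ENSMUSG00000040147.14, chromosome X, 16709282 to 16817366, minus strand) was highest in beta cells and present in every endocrine type. Beta cells held 194 and 161 CPM (1054 and 708 UMIs), a mean of 178 ± 22.8 (SD, n = 2). Alpha cells held 48.1 and 57.3 CPM, the delta class 55.3 and 48.7 CPM, PP cells 24.1 and 21.3 CPM, stellate cells 15.4 and 10.1 CPM and the endothelial class 9.63 and 5.66 CPM. Alpha cells and the delta class overlapped, and beta cells lay above both and PP cells below both in each library. The log2 difference from beta cells was -1.32 ± 0.21 in alpha cells (edgeR adjusted p = 1.5e-05), -1.73 ± 0.20 in the delta class (2.0e-07) and -2.56 ± 0.27 in PP cells (3.9e-08). Non-endocrine cells were lower than endocrine ones by -2.87 ± 0.39 (edgeR adjusted p = 9.3e-07).

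Unlike Th, Maob was as high in beta cluster 2 (230 and 183 CPM) as in cluster 0 (198 and 175 CPM), and cluster 5 was the lowest beta cluster at 85.3 and 112 CPM. Cluster 3 of the delta class held 17.6 and 15.8 CPM, below the 90.8 and 90.5 CPM of cluster 8, in which beta markers were higher. Cluster 7 held 25.2% and 3.35% of the Maob UMIs of the class, and 14.6% and 4.14% of all its UMIs. Cluster 16, with beta markers at only 2255 and 844 CPM, held 7.09% and 6.22% of the Maob UMIs and 3.69% and 6.51% of all UMIs. The part of the beta markers in these Maob levels was not tested. A Maob UMI was seen in 34.98% and 72.4% of beta cells, 17.5% and 13.3% after thinning. In thinned alpha cells the share was 4.88% and 7.53%. Nearly all assigned UMIs in beta cells were Maob-201, the 520-codon form, at 983 of 986 and 666 of 668. Maoa, which encodes the other monoamine oxidase, ranged from 20.8 to 36.1 CPM over the endocrine types. It was higher in the delta class (36.1 and 36.1 CPM) than in beta cells (26.3 and 24.4 CPM) in both libraries, but no call was made there (0.56 ± 0.22, edgeR adjusted p = 0.094) or in the other 3 comparisons.

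**Figure D4:**
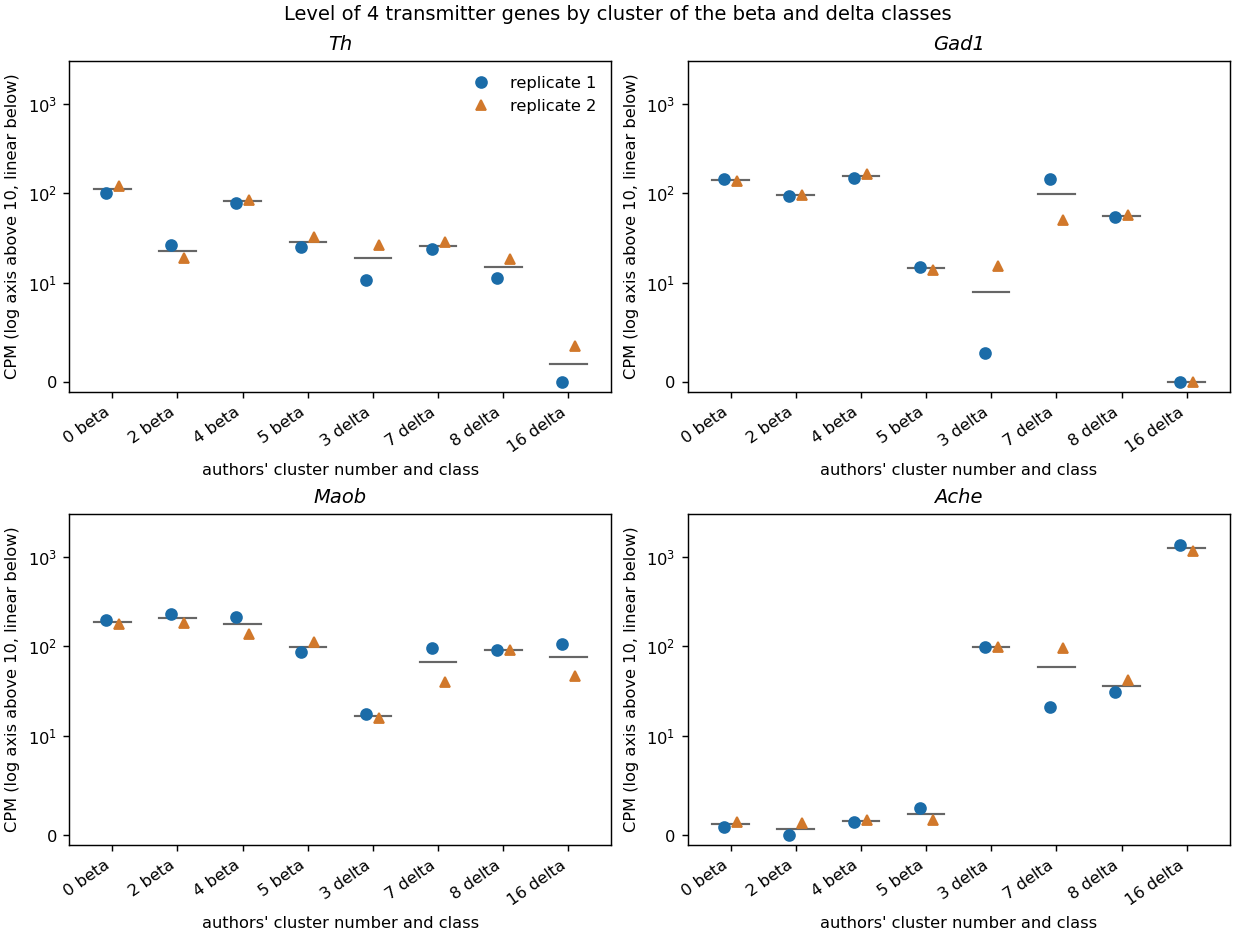
Level in CPM (y axis, logarithmic above 10 and linear below) of Th, Gad1, Maob and Ache in the 4 beta clusters and 4 clusters of the delta class (x axis), with 1 point per library and a grey bar at the mean. Th is high in clusters 0 and 4, Gad1 is low in clusters 5 and 3, and Ache reaches 1369 and 1169 CPM in cluster 16.

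The 2 vesicular transporters had a different order of types. Slc18a1 (ENSMUSG00000036330.12, chromosome 8, 69037711 to 69089235, minus strand) held 19.7 and 19.1 CPM in beta cells (107 and 84 UMIs), 23.5 and 10.7 CPM in the delta class, 15.2 and 4.38 CPM in alpha cells and 8.75 and 4.91 CPM in PP cells. The libraries disagreed on whether alpha cells and the delta class lay near beta cells. No difference from beta cells was called: -0.66 ± 0.37 in alpha cells (edgeR adjusted p = 0.243), -0.24 ± 0.31 in the delta class (0.729) and -1.12 ± 0.53 in PP cells (0.154). Without TMM scaling, which shifts the median of all genes to -0.39 in alpha and -0.42 in PP cells, the alpha value was -1.09 (0.022) and the PP value -1.54 (0.026). It was not detected in the endothelial class, at least 3.63-fold lower than in beta cells, and stellate cells had 1 UMI. The non-endocrine difference of -4.67 ± 1.43 was called (edgeR adjusted p = 0.0133), but not without the replicate block (0.0503), and the single libraries gave -4.10 and -1.62.

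In beta cells the full-length Slc18a1-201 held 62 of 90 and 43 of 73 assigned UMIs (68.9% and 58.9%). Slc18a1-205, a 4-exon form with 19 annotated codons, held 8.89% (exact 95% interval 3.92 to 16.8) and 24.7% (15.3 to 36.1). No share was called by diffSpliceDGE against the delta class (37 and 37 assigned UMIs) or alpha cells (19 and 8, with 0.991% of genes called). Atp6v1b2 and the antisense gene Gm15716 overlap the locus.

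Slc18a2 (ENSMUSG00000025094.8, chromosome 19, 59260896 to 59296012, plus strand) was sparse. It held 2.94 and 2.28 CPM in beta cells (16 and 10 UMIs), 3.14 and 1.75 CPM in alpha cells and 7.40 and 6.99 CPM in the delta class (17 and 30 UMIs). PP cells had no UMI, at least 1.35-fold lower than beta cells (floor of 3 UMIs over both libraries). The endothelial class held 9.63 and 5.66 CPM (2 and 2 UMIs) and stellate cells 0 and 20.2 CPM (0 and 2 UMIs). Both overlapped the delta class. The delta class lay above beta cells in both libraries, but the difference of 1.49 ± 0.56 was not called (edgeR adjusted p = 0.081), though it was at 1.69 (0.043) after the cells with the highest doublet scores were left out. Cluster 16 held 5 of the 17 and 17 of the 30 UMIs. Without it the class stood at 5.42 and 3.24 CPM and the difference was 0.73 ± 0.63 (adjusted p = 0.576).

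The tryptophan hydroxylases were near the limit of detection. Tph1 (chromosome 7, 46644641 to 46672537, minus strand) had 4 UMIs in 4 beta cells of replicate 1, 0.175% of them, and none in any other type. Tph2 (chromosome 10, 115078641 to 115185022, minus strand) had 12 and 4 UMIs in beta cells, 3 and 6 in the delta class and 1 and 1 in alpha cells, with none in PP cells, the endothelial class or stellate cells. Of its beta-cell UMIs, 7 of 12 and 4 of 4 were in cluster 2, which held 619 of the 2284 and 84 of the 435 beta cells. All of its assigned UMIs in beta cells, 12 and 4, were Tph2-201. The serotonin transporter gene Slc6a4 had 1 UMI in replicate 2 and was not analysed here in replicate 1.

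Ache (ENSMUSG00000023328.14, chromosome 5, 137287519 to 137294466, plus strand) was highest in the delta class and lowest of the endocrine types in beta cells. The delta class held 107 and 139 CPM (246 and 595 UMIs), PP cells 47.0 and 47.4 CPM (43 and 29 UMIs), alpha cells 13.6 and 8.75 CPM (26 and 20 UMIs) and beta cells 0.919 and 1.37 CPM (5 and 6 UMIs). Stellate cells held 23.0 and 30.2 CPM on 6 UMIs and the endothelial class 4.81 and 0 CPM. The 4 endocrine types did not overlap in either library. Relative to beta cells, the log2 difference was 6.73 ± 0.33 in the delta class (edgeR adjusted p = 1.3e-14), 5.72 ± 0.41 in PP cells (2.9e-11) and 3.63 ± 0.46 in alpha cells (5.4e-07). The single libraries gave 5.70 and 5.91, 4.95 and 4.68, and 3.26 and 2.35 in these types, with a prior count of 2. The non-endocrine difference of -1.56 ± 0.65 was not called (0.068), but passed with clusters from transcripts (0.0076) and without the highest doublet scores (0.037).

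Much of the class level came from cluster 16. Its 7 and 7 cells held 116 and 327 Ache UMIs (1369 and 1169 CPM), 47.2% and 55.0% of those of the delta class, and every one of these cells had a UMI. Without cluster 16 the class stood at 58.8 and 66.8 CPM and the difference from beta cells was 5.78 ± 0.35 (edgeR adjusted p = 3.4e-13). Cluster 3, led by delta markers, held 97.8 and 98.8 CPM while no beta cluster exceeded 2.75 CPM. Ache was thus above beta cells in cells with delta markers as well as in cluster 16. In thinned cells, 6.88% and 4.72% of the delta class had an Ache UMI, against 0.0457% and 0.230% of beta cells. The unthinned shares were 12.2% and 50.9% in the delta class and 0.219% and 1.38% in beta cells.

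Cluster 16 also carried the other genes of a cholinergic neuron. Choline acetyltransferase (Chat) had 10 and 22 UMIs in it and none elsewhere. The vesicular acetylcholine transporter Slc18a3 had 52 of 52 and 277 of 278, and the choline transporter Slc5a7 48 of 48 and 99 of 101, of their delta-class UMIs there. The authors' clusters from transcript counts placed 7 of 7 and 6 of 7 of these cells in a cluster named beta. With those names Ache in beta cells was 21.6 and 70.3 CPM, and the differences changed to 0.67 in the delta class (edgeR adjusted p = 0.193), 0.49 in PP cells (0.418) and -1.56 in alpha cells (0.0074). With the same names and cluster 16 left out, beta cells held 0.732 and 1.59 CPM and the differences were 5.83, 5.62 and 3.60.

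Ache-201 held 142 of 195 and 385 of 501 assigned UMIs in the delta class (72.8% and 76.8%) and Ache-202 held 46 and 105 (23.6% and 20.96%). Both have 614 codons, and beta cells had only 3 and 3 assigned Ache UMIs, too few to compare the shares between types. The bases upstream of Ache-201 are shown beside those of Th because beta cells were the highest endocrine type for Th and the lowest for Ache. The window holds the 196 bases before the RefSeq start (chr5:137288058-137288253, plus strand).

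Ache: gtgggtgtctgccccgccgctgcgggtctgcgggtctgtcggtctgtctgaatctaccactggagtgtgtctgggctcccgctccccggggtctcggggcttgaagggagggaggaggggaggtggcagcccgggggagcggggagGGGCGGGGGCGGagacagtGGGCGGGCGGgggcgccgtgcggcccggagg

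It contains 4 GC boxes, of which the last 2 overlap, and 30.9% of windows of this length hold at least 1. It has no cyclic-AMP element, AP-1 site or E-box, found in 1.46%, 5.35% and 57.4% of such windows.

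**Figure D5:**
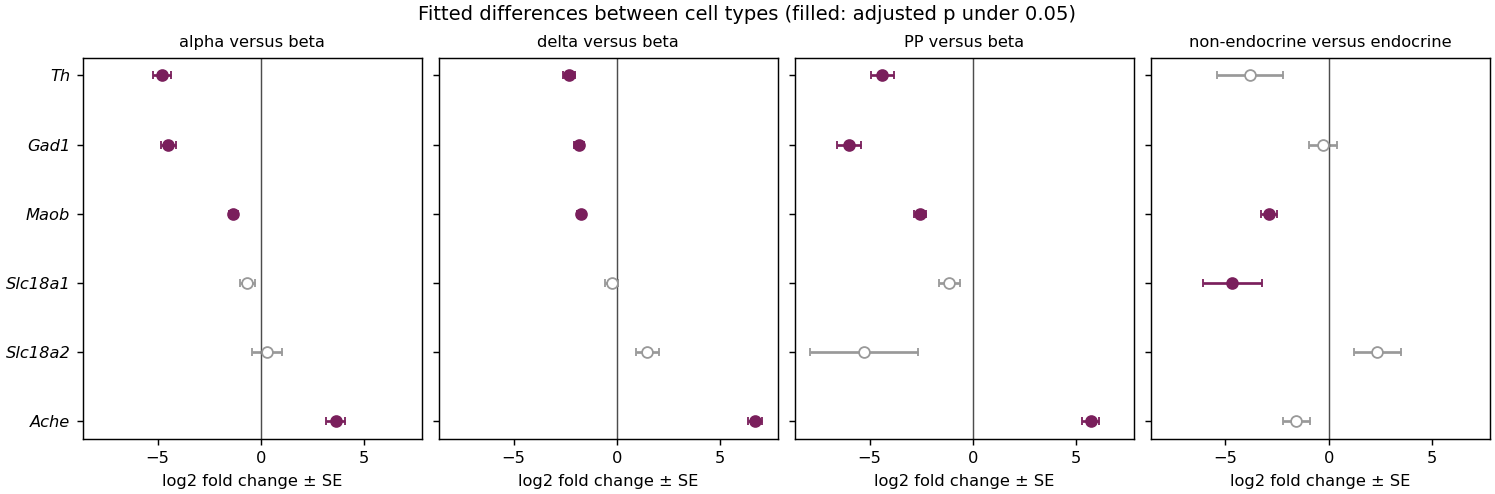
Fitted log2 fold change with its SE (x axis) for the 6 genes past the filter on low counts (y axis) in each of 4 comparisons; filled points have an edgeR adjusted p under 0.05. Th, Gad1 and Maob lie left of zero and Ache right of it in alpha, delta-class and PP cells relative to beta cells.

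Pathway partners of the 9 genes were counted in 6 lists of 115 genes, of which 53 were tested and 21 had no row in either table, Dbh, Pnmt, Slc6a3 and Slc32a1 among them, which were not analysed here. Counts in each list below stand beside these shares of all 13265 genes. In alpha cells 9.13% were called higher and 9.91% lower, and in the delta class 8.78% and 5.01%. In PP cells the shares were 8.89% and 8.43%, and in non-endocrine cells 13.6% and 17.1%. In the catecholamine list of 10, 6 were tested. Of these, 1 was higher and 1 lower in alpha than in beta cells (median -0.27 beside 0.02 over all genes). The lower one was Ddc, the decarboxylase that turns L-DOPA into dopamine, with 588 and 488 CPM in beta, 209 and 277 CPM in alpha, 194 and 153 CPM in delta-class and 223 and 299 CPM in PP cells. It was called lower in alpha cells (-0.73, edgeR adjusted p = 0.027) and in the delta class (-1.60, 1.1e-05, and -3.14 with own-marker clusters). The alpha call was lost without the replicate block (0.212) and with clusters from transcripts (0.056). The higher one was Nr4a2, a transcription factor of dopamine neurons, at 56.5 and 78.8 CPM in alpha against 6.25 and 9.80 CPM in beta cells (3.49 ± 0.27). In the delta class 1 was higher and 2 were lower (median -0.21). In PP cells 1 was higher (Nr4a2, 1.75) and 1 lower (median -0.19). The Nr4a2 call in the delta class was lost without the block and with own-marker clusters. In non-endocrine cells 3 were higher, the aldehyde dehydrogenases Aldh1a1 (9.41) and Aldh2 (3.00) and Nr4a2 (1.44), and Ddc was lower (-3.43; median 0.74).

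In alpha cells (9.91% of all genes lower), 3 of 7 tested genes of BH4 synthesis and recycling were lower and none higher (median -0.64). They were Gch1, the entry enzyme (-0.66), Spr (-0.79) and Qdpr (-0.69), with adjusted p of 0.026 to 0.035, and none of the 3 was called without the replicate block. Gch1 was at 296 and 245 CPM in beta, 121 and 132 CPM in alpha and 98.4 and 88.3 CPM in PP cells, where it was lower by -1.13 ± 0.23 and the only one of the list called (median 0.29). In the delta class 2 were higher (median 0.02), of which Spr (0.74) was not called without cluster 16. In non-endocrine cells 4 were lower, Gch1 (-2.06), Pcbd1, Qdpr (-1.38) and Pts (-1.05), and Spr was higher (1.22; median -1.05 beside -0.25).

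Of 8 tested genes of GABA and glutamate handling, 2 were higher and 2 lower both in alpha cells (median -0.08) and in PP cells (median -0.16). Glud1, glutamate dehydrogenase, stood at 150 and 77.9 CPM in alpha against 74.8 and 39.0 CPM in beta cells (1.42 ± 0.21, edgeR adjusted p = 8.0e-06). Abat, the GABA transaminase, was at 19.4 and 26.3 CPM against 88.2 and 71.6 CPM (-1.35 ± 0.25, adjusted p = 1.5e-04), with Glul, glutamine synthetase, at -0.68. PP cells gave 0.97 for Glud1, -1.22 for Abat and -1.10 for Glul. Without the block, Glud1 was called in neither type, Glul not in alpha cells and Abat not in PP cells. In the delta class Glul alone was called, at -1.22 (median 0.24). In non-endocrine cells 3 were lower (median -0.80), Abat (-2.27) and Aldh5a1 (-1.79) among them.

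Of 8 tested serotonin genes, Fev, a transcription factor of serotonin neurons, was higher than in beta cells in alpha (5.07), delta-class (4.00) and PP cells (5.10), at 34.5 and 33.3, 24.4 and 18.2, and 39.4 and 31.1 CPM against 2.02 and 0.456 CPM. Lower were Slc7a5 and Ddc in alpha cells (2 genes, median 0.16), these and Slc7a8 in the delta class (3 genes, median -0.43), and Slc7a5, Slc7a8 and Lmx1b in PP cells (3 genes, median -0.61). Slc7a5 and Slc7a8 carry large neutral amino acids, tryptophan among them. The calls of Slc7a5 in all 3 types, of Slc7a8 in the delta class and of Lmx1b, which had no UMI in PP cells, were lost with DESeq2, without the block or both. In non-endocrine cells 4 were lower, Ddc, Slc7a8, Fev and Slc7a5, and none higher (median -0.999).

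The acetylcholine list in the delta class rested on cluster 16, without which 11.7% of 13185 genes were called (6.97% higher, 4.70% lower). With it, 5 of 11 tested genes were higher and 1 lower (median 1.06), beside 8.78% and 5.01% of all genes. Without cluster 16 only 7 were tested, of which 1 was higher (Slc44a4, 3.40) and 1 lower (Slc44a1, -0.68), with a median of -0.11. Slc18a3, Slc5a7, Prima1 and Colq, the last 2 of which anchor acetylcholinesterase, no longer passed the filter. In alpha cells Chkb was higher (0.82, not called without TMM or with DESeq2) and Slc44a1, a choline transporter, lower (-1.07; median 0.11). In PP cells Slc44a1 was lower (-2.13; median 0.26), and in non-endocrine cells Slc44a2 was higher (3.36; median 0.43).

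Among 51 receptor genes, 15 were tested. The adrenergic receptor Adra2a was at 70.6 and 81.4 CPM in beta, 3.14 and 3.94 CPM in alpha, 31.8 and 35.4 CPM in delta-class and 4.37 and 3.27 CPM in PP cells, lower in each (-3.98, -1.13 and -3.83). Gabbr2, a subunit of the GABA-B receptor, was lower in each as well (-2.55, -1.70 and -3.11), and the muscarinic receptor Chrm3 was lower in alpha cells (-4.75) and the delta class (-1.22). These were the 3 genes called in alpha cells (0 higher, median -0.71). The delta class had 7 higher and 3 lower (median 0.88), beside 8.78% and 5.01% of all genes. Without cluster 16 it had 2 higher, Gabbr1 (0.76) among them, and the same 3 lower among 11 tested (median -0.20). In that fit 6.97% and 4.70% of all genes were called higher and lower. Chrna3, Htr3a, Gabrg3 and Chrnb4 were then untested and Chrm2 was not called. In PP cells Gabbr1 was higher (1.35) and 2 were lower (median -0.29). In non-endocrine cells 4 were lower, with Chrnb2, Gabbr1 and Gabbr2 among them, and none higher (median -1.23).

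Genes whose level over the 12 sums was most like that of each gene were listed by Pearson's r of log2(CPM + 1), among 11804 genes with at least 100 UMIs. The 12 sums share 2 libraries and differ in depth, so the values are descriptions. Nearest to Th were Grin1 (r = 0.973), Stk26 (0.970) and Gm17767 (0.964). Nearest to Gad1 were Sytl4 (0.9502), Zcchc2 (0.939) and Ucn3 (0.936), to Maob Vdr (0.969), Sec31a (0.962) and Cltc (0.961), to Slc18a1 Ccdc92b (0.972), Unc80 (0.969) and Abhd15 (0.968), and to Ache Klhdc8b (0.911), Tro (0.875) and Pnck (0.870). The mean level of Grin1 was 36.0 CPM in beta, 1.79 CPM in alpha, 14.7 CPM in delta-class and 3.28 CPM in PP cells. Klhdc8b ran from 20.97 CPM in beta to 121 CPM in delta-class cells, with 73.5 and 74.0 CPM in alpha and PP cells.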

How the data were processed

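Single islet cells were captured with a modified 10x 5' protocol, insulin cDNA was removed and the rest read on a Nanopore sequencer, per the labels' protocols. The authors deposited raw UMI counts of genes and of annotated transcripts in each cell, in files marked as a subset, with a cell table of clusters and names; build mm10 and Seurat are named in the submitters' processing notes. The aligner, counting tool, use of strand and what the subset holds are not given in the sources used here. Totals were 11012364 and 12092393 UMIs in 4814 and 1093 kept cells.

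UMIs of a named type were added up within each library, for 6 types that reached 20 cells in both, giving 12 sums. These were fitted together in edgeR 4.0.16 (R 4.3.3) with TMM, filterByExpr, type and library as terms and quasi-likelihood tests, with Benjamini-Hochberg adjustment over 13265 genes at 0.05 and 5 residual degrees of freedom. Sums of the same library deviated together (30 pairs, correlations 0.088 to 0.474), and the pairing is the shared library. Transcript shares were tested with diffSpliceDGE for transcripts with 10 UMIs and 5% of the gene. CPM are counts per 1000000 UMIs of a sum, without TMM. Thinning drew 1000 UMIs per cell and left out shallower cells. Transcripts and coordinates come from GENCODE M21 (GRCm38) and promoter windows from RefSeq (GRCm38.p6, 7 of 9 genes matched), trimmed to bases outside the gene's GENCODE exons. Scrublet (scanpy 1.11.5, expected rate 0.06) called 6 (0.125%) and 13 cells (1.19%) as doublets, none were removed, and an alternative left out the 289 and 66 highest-scoring cells. Scripts were tested on simulated data.

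All 9 genes were reported. Of the pathway lists, up to 4 genes called in a comparison were named by adjusted p, with defining enzymes that had no UMI; some list genes are counted but not reported here by name. The genes, lists and rules were chosen with earlier results of these data known. Alternatives were no TMM, DESeq2 1.42.0, no filter, no replicate block, own-marker clusters (without beta cluster 5 and with delta cluster 3 alone), clusters from transcripts, doublet removal and each library alone. Those without cluster 16 were chosen after seeing the data.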

Additional observations from a re-analysis of the deposited data

How the results depend on the processing

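In alpha cells, the delta class and PP cells against beta cells, the calls of Th, Gad1 and Maob kept direction and side of the threshold in every alternative run; Ache lost or reversed its calls only with clusters from transcripts (-1.56 in alpha cells), as given above. DESeq2 kept all 24 results of the 6 genes. Reversed with clusters from transcripts were also, in the delta class, Chrm2 (-2.84), Colq (-3.35), Htr3a (-5.32), Prima1 (-3.26), Slc18a3 (-7.38) and Slc5a7 (-4.51), in all of which cluster 16 changed class, and Slc18a2 in alpha cells (-0.32, and -0.12 without TMM; the cause was not tested). Uncalled values that changed sign were Gad1 in non-endocrine cells (0.031 without TMM, 0.10 with own-marker clusters) and the share of Slc18a1-205 in the delta class (-0.26 points with own-marker clusters). The fit without the replicate block changed 1 call of the 6 genes (Slc18a1 in non-endocrine cells). Of the named pathway genes' calls, 23 were lost with DESeq2, 21 without the block, 7 without TMM and 7 with own-marker clusters, with no change of direction.

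The number of genes called went from 2525 to 4043 in alpha cells without TMM (708 higher and 3335 lower, against 1211 and 1314) and to 1281 without the replicate block. In the delta class it went from 1829 to 1195 with DESeq2 and 862 without the block, and in PP cells from 2297 to 1149 without the block. Without TMM the PP split was 656 higher and 2746 lower, against 1179 and 1118, and the non-endocrine one 2295 and 1401, against 1800 and 2272. Genes with changed transcript shares went from 55 to 13 (alpha) and from 49 to 20 (delta) without the block, and in the delta class to 29 with own-marker clusters and 20 without cluster 16. With 1 library left out no residual degrees of freedom remained, so calls could not be counted. Of the 24 log2 differences of the 6 genes, 8 without replicate 1 and 7 without replicate 2 lay further from the fitted value than the SD between libraries. None changed sign in a called comparison, and the called values that moved by over 1.5 times are given above for each library. The single-library values use a prior count of 2, which draws low genes towards 0, and the fitted values do not. Part of each distance can therefore come from the measure and not from the library left out. Values not called that changed sign were those of Slc18a1 in alpha cells (0.064) and the delta class (0.22), Gad1 (0.22) and Slc18a2 (-0.19) in non-endocrine cells, all without replicate 2.

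Shares of cells moved with depth: after thinning they were 5.71% and 8.51% (Th, beta), 9.96% and 9.89% (Gad1, beta), 17.5% and 13.3% (Maob, beta) and 6.88% and 4.72% (Ache, delta). With own-marker clusters Gad1 was seen in 24.3% and 60.4% of beta cells, Maob in 37.8% of those of replicate 1 and Ache in 19.5% of delta cells of replicate 1.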
